A study of Mus musculus with 3 samples.

Results

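Microglia, the resident macrophages of the brain, and the endothelial and mural cells of its vessels are cell types that an oligodendrocyte progenitor culture is meant to leave out. The chromatin of 33 of their marker genes, of 21887 protein-coding mouse genes in all, was examined here in ATAC-seq peak tables of oligodendrocyte lineage cells. The genes were taken by name: 16 mark microglia and macrophages, 13 mark endothelium and 4 mark mural cells, the pericytes and smooth muscle cells that wrap vessels. The 3 libraries were Seh1cKO cells after 1 day in 60 nM T3 (thyroid hormone, which drives progenitors to differentiate), control cells after 1 day in 60 nM T3, and control progenitors at day 0. Seh1 is a nuclear pore subunit. Seh1cKO cells carry its conditional knockout and control cells are wild type for it, all from C57BL/6 mice of postnatal days 4 to 7. Progenitors were immunopanned from cortex, with anti-GalC plates to remove cells and anti-O4 plates to keep them, and each library took 50000 cells. The driver of the deletion, the deleted part of the gene and any pooling of animals are not given in the sources used here. Each group was 1 library, so the spread between replicates is unknown and p-values are left out. All intervals cover counting error only.

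ATAC-seq maps open chromatin: a transposase cuts accessible DNA, and fragments pile up where nucleosomes are loose. Genes of another cell type are usually held in closed chromatin, while enhancers used in several lineages, and promoters rich in CG dinucleotides, can be open without the gene being active. PU.1, the product of Spi1, sets up the macrophage programme, and ETS factors such as Erg and Fli1 with the SoxF factors Sox17 and Sox18 set up the endothelial programme.

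The Seh1cKO day 1 library held 46113 peaks from 10845533 fragments, the control day 1 library 118441 peaks from 18260883 and the control progenitor library 108788 peaks from 23403600. The lowest pileup that was called, the number of fragments stacked at a peak's summit, was 6, 8 and 9 in that order of libraries, or 0.553, 0.438 and 0.385 fragments per 1000000 library fragments (FPM). A peak therefore had to be taller in FPM to be listed in the Seh1cKO library than in either control. Of 20 oligodendrocyte lineage genes, 14 had a peak within 1000 bp of a gene end in the Seh1cKO library, 18 in the control day 1 library and 15 in the progenitor library. The strongest such peak of Olig2, a defining lineage factor, had 5.07 FPM in Seh1cKO cells, 4.60 in control day 1 cells and 8.76 in progenitors, and that of Sox10 had 1.94, 2.25 and 2.82. Cspg4, the NG2 progenitor marker, had no gene-end peak in any library. Seh1l, the targeted gene, had a gene-end peak of 4.33 FPM in Seh1cKO cells, 3.83 in control day 1 cells and 3.29 in progenitors, which checks nothing about the deletion since the deleted part is not known here.

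Most of the microglial and vascular genes had no peak at their ends. A gene-end peak, one within 1000 bp of either end of the gene in mm10, was called for 8 of the 33 genes in the Seh1cKO day 1 library, against 56.2% of all protein-coding genes. In the control day 1 library 10 of 33 had one, against 63.2% of all genes, and in the progenitor library 12 of 33, against 62.4%. As shares these were 24.2% in Seh1cKO cells, 30.3% in control day 1 cells and 36.4% in progenitors. Only 5 genes, Spi1, P2ry12, Kdr, Flt1 and Erg, had a gene-end peak in all 3 libraries (15.2%, against 54.1% of all genes). Another 16 had none in any library (48.5%, against 31.5% of all genes). These were Itgam (the integrin subunit CD11b), Cx3cr1 (the fractalkine receptor), Csf1r (the receptor for the growth factor microglia need to survive), Aif1 (the actin-binding protein Iba1), Trem2 and its adaptor Tyrobp, the complement genes C1qb and C1qc, Fcrls, Pecam1, Cdh5 (VE-cadherin), Tie1, Fli1, Sox17, Sox18 and Rgs5. Summed over the 33 genes, the strongest gene-end peaks came to 8.30 FPM in Seh1cKO cells, 12.5 in control day 1 cells and 10.1 in progenitors, against 31.7, 48.7 and 38.2 over the 20 oligodendrocyte lineage genes.

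By class, 3 of 16 microglial genes had a gene-end peak in Seh1cKO cells, 4 in control day 1 cells and 5 in progenitors. Of the 13 endothelial genes, 3 had one in Seh1cKO cells, 4 in control day 1 cells and 6 in progenitors. Of the 4 mural genes, 2 had one in Seh1cKO cells, 2 in control day 1 cells and 1 in progenitors. Further markers gave 4, 7 and 9 of 20 for microglia, 7, 8 and 12 of 20 for endothelium and 5, 7 and 5 of 10 for mural cells, in the same order of libraries. The 7 of 10 further mural genes in control day 1 cells was above the share over all genes. Among lists of other cells, astrocyte genes gave 8, 8 and 8 of 10, neuron genes 4, 9 and 7 of 10, and genes of T, B and erythroid cells 2, 3 and 4 of 10. In a bulk library, fewer cells with open chromatin and less opening per cell cannot be told apart. Whether the member peaks came from a few microglial or vascular cells in the culture was not tested.

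**Figure D1:**
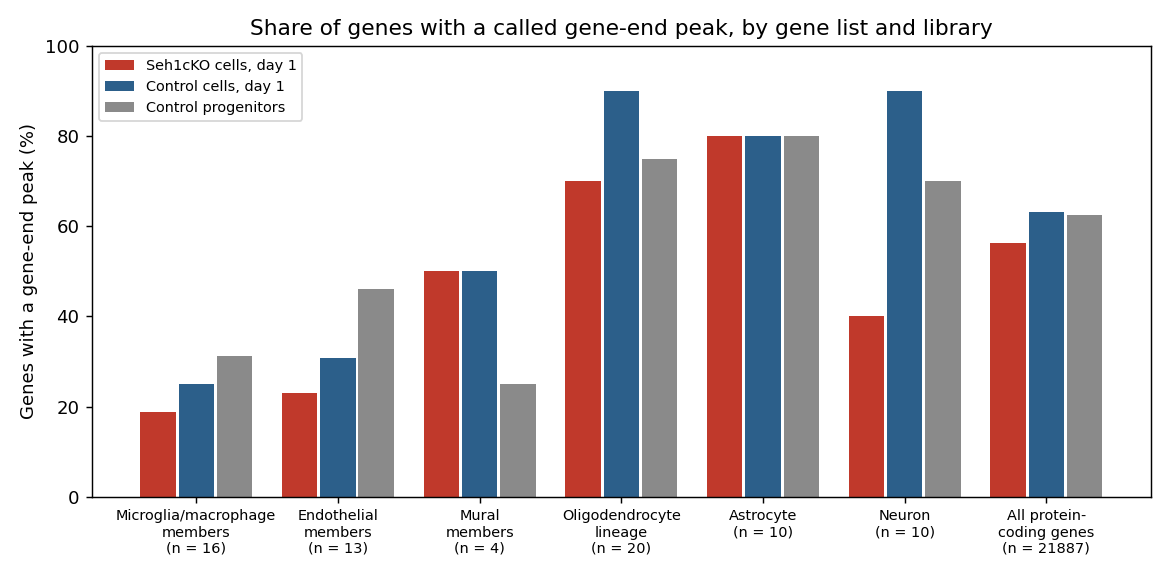
Share of genes in each plotted list with a called gene-end peak (vertical axis, percent), with bars for the Seh1cKO day 1, control day 1 and control progenitor libraries. The bars of the 16 microglial, 13 endothelial and 4 mural genes all lie below the bars over all genes, which stand at 56.2%, 63.2% and 62.4%.

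The gene-end peaks that were called were low. The strongest end peak per gene had a median of 0.922 FPM in Seh1cKO cells, 1.01 in control day 1 cells and 0.705 in progenitors, against 2.86, 2.52 and 1.88 over all genes with such a peak. Strong peaks, here those whose −log10 q reached 10, were present at the ends of 1 gene in Seh1cKO cells, 4 in control day 1 cells and 4 in progenitors. The matching share over all genes was not computed, so these counts do not show whether strong end peaks were rare here.

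**Figure D2:**
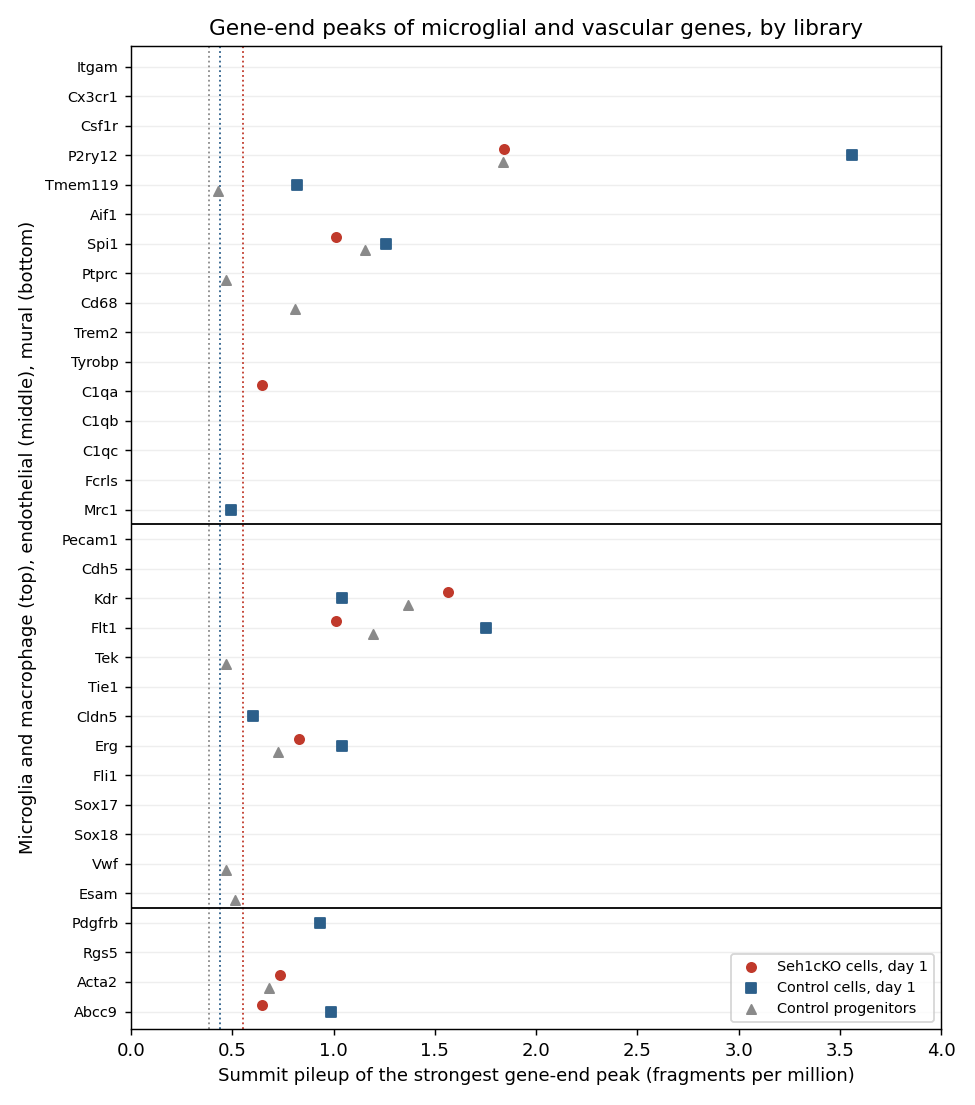
Summit pileup of the strongest gene-end peak of each of the 33 genes (horizontal axis, FPM; a gene with no point in a library had no gene-end peak there), by library, with dotted lines at each library's lowest called pileup. P2ry12 in the control day 1 library, at 3.56, is the highest point, and 16 genes have no point at all.

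P2ry12, the ADP receptor by which resting microglia sense injury, had the tallest gene-end peak of the 33 in every library. Its summit held 20 fragments in Seh1cKO cells, 65 in control day 1 cells and 43 in progenitors, or 1.84, 3.56 and 1.84 FPM, with −log10 q of 14.5, 59.8 and 34.2. The site, chr3:59262625-59263206, covered the RefSeq start of P2ry12 on the minus strand, and it also lay inside the body of Med12l, which spans the receptor gene, so its signal cannot be given to either gene alone. The control day 1 library was highest, and the other libraries had nearly the same level. The ratio of Seh1cKO to control day 1 was 0.518 (exact 95% interval 0.297 to 0.866), and that of control day 1 to progenitors 1.94 (1.30 to 2.92).

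Besides Erg, the VEGF receptor genes were the endothelial genes with an end peak in every library. Kdr, the main signalling receptor for VEGF, had 17 fragments in Seh1cKO cells, 19 in control day 1 cells and 32 in progenitors, or 1.57, 1.04 and 1.37 FPM, at a site that overlapped its RefSeq promoter window in all 3 libraries. This Kdr site also overlapped the noncoding RNA gene Gm32727 and lay within 1000 bp of an end of it. Flt1, the decoy-like VEGF receptor, had 11, 32 and 28 fragments in the same order, or 1.01, 1.75 and 1.20 FPM. Abcc9, a potassium channel subunit of pericytes, had 7 fragments at its promoter in Seh1cKO cells and 18 in control day 1 cells, or 0.645 and 0.986 FPM, and no gene-end peak in progenitors. Kdr was highest in Seh1cKO cells, and Flt1 and Abcc9 in control day 1 cells, but the intervals of the Seh1cKO to control day 1 ratio all held 1. That ratio was 1.51 (0.736 to 3.06) for Kdr, 0.579 (0.263 to 1.18) for Flt1 and 0.655 (0.231 to 1.64) for Abcc9.

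The promoter windows of these genes are shown with those of 2 genes with no gene-end peak in any library, to set open starts beside silent ones. All are RefSeq GRCm38.p6 windows of 300 bases on the minus strand, printed 5′ to 3′ along the gene, with CG dinucleotides in capitals. P2ry12 lies at chr3:59262936-59263235, Kdr at chr5:75978406-75978705, Flt1 at chr5:147725962-147726261 and Abcc9 at chr6:142702225-142702524. The windows of the silent starts, Cx3cr1 and Tie1 (an endothelial receptor of the angiopoietin pathway), lie at chr9:120068247-120068546 and chr4:118489800-118490099.
P2ry12: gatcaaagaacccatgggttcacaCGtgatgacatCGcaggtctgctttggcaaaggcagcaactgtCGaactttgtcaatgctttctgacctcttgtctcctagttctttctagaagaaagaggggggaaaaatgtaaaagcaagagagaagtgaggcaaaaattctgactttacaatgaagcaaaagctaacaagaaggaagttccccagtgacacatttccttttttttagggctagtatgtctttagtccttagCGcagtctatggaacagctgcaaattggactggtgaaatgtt
Kdr: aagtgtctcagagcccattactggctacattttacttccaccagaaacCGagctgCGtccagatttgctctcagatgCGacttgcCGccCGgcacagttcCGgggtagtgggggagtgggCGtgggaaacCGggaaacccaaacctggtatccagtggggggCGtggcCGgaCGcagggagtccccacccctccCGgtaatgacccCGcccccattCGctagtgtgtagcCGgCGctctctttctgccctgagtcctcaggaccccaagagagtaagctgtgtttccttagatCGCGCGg
Flt1: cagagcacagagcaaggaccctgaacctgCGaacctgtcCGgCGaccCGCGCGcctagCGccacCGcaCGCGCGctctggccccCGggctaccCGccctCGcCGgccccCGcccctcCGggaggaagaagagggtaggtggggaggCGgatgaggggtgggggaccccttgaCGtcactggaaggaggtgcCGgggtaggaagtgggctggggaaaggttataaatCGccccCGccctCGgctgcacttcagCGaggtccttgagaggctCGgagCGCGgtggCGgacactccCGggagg
Abcc9: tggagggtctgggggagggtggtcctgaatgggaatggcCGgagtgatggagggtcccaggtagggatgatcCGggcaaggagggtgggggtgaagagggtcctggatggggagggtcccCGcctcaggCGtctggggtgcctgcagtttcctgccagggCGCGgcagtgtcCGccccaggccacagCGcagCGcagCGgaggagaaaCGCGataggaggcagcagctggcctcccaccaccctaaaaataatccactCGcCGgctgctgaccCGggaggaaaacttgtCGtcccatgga
Cx3cr1: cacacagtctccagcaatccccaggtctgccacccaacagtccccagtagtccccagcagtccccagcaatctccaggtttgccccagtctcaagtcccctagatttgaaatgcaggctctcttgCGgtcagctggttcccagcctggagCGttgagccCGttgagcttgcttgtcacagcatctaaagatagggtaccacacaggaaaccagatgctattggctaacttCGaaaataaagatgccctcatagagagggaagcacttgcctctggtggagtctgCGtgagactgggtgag
Tie1: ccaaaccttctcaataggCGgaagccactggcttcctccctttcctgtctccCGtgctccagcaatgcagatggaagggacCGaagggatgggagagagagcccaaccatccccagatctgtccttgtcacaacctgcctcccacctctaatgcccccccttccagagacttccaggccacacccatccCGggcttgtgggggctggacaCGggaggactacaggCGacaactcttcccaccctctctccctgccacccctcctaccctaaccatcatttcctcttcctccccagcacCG

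Flt1 held 29 CG dinucleotides, Kdr 19 and Abcc9 16, against a median of 7 over all 32851 promoter windows. P2ry12 held 4, Cx3cr1 5 and Tie1 7, so the tallest end peak of the 33 genes lay over a CG-poor start. Only 20 of the 33 genes (60.6%) had a promoter entry, too few for a comparison over the list. In their 23 windows, the ETS-type letters GAGGAAGT, searched on both strands, were found only in C1qc, against 3.20% of all promoters. The letters AGATAA were found in windows of Erg, Fcrls, Ptprc, Rgs5 and Tek, against 11.2% of all promoters, and CCGGAAGT, which shares its last 6 letters with the first motif, and ACAATGG in none, against 3.89% and 3.66%. None of the 6 windows printed here held any of the 4 motifs.

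Spi1 and Erg, the transcription factor genes with end peaks throughout, each had one inside the gene in every library. At the higher-coordinate end of Spi1 the peak had 11 fragments in Seh1cKO cells, 23 in control day 1 cells and 27 in progenitors, or 1.01, 1.26 and 1.15 FPM. The other end of Spi1 had no peak within 1000 bp in any library. Spi1 had no promoter entry and so no strand here, and this peak cannot be read as an open start. The strongest Erg end peak had 9, 19 and 17 fragments, or 0.830, 1.04 and 0.726 FPM, in the same order. In progenitors this was another site, its near edge exactly 1000 bp beyond the gene. At the site shared by all 3 libraries, chr16:95585485-95585799, progenitors had 13 fragments, or 0.556 FPM. At this shared site, and at the Spi1 site, the control day 1 library was highest, but the Seh1cKO to control day 1 ratio, 0.805 (0.354 to 1.72) at Spi1 and 0.798 (0.318 to 1.85) at Erg, had intervals that held 1.

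The remaining end peaks were called in 1 or 2 libraries each and held 19 fragments or fewer. In Seh1cKO cells, C1qa (a subunit of complement C1q) had 7 fragments, or 0.645 FPM, and Acta2 (smooth muscle actin) had 8, or 0.738. In control day 1 cells, Pdgfrb (the pericyte receptor for PDGF-B) had 17, Tmem119 (a microglial membrane protein) 15, Cldn5 (the tight junction protein of the blood-brain barrier) 11 and Mrc1 (the mannose receptor of border macrophages) 9 fragments. In progenitors, Cd68 (a lysosomal protein of phagocytes) had 19 fragments, Acta2 16, Esam (an endothelial adhesion molecule) 12, and Ptprc (the leukocyte phosphatase CD45), Tek (the angiopoietin receptor Tie2) and Vwf (von Willebrand factor) 11 each, while Tmem119 had 10. Of all these, no peak was strong. The end peaks of Pdgfrb in control day 1 cells, and of Esam and Acta2 in progenitors, also lay at the ends of other genes, namely Gm52351, Vsig2 and Stambpl1. The call for Acta2 in Seh1cKO cells lay 989 bp from the gene's end on the side of its start, while the progenitor peak that overlapped it lay 1217 bp away and did not count. The Acta2 end peak counted in progenitors lay at the opposite end of the gene. The 11-fragment Cldn5 peak lay 1514 bp from its RefSeq start, past the gene, and the Tek peak 134939 bp from its start. Among genes with an end peak and a promoter entry, the promoter window was overlapped in 4 of 6 in Seh1cKO cells, 5 of 7 in control day 1 cells and 2 of 8 in progenitors. These few genes have no background over all genes here, so the difference between libraries is not read as a result.

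Set side by side, 2 genes (C1qa and Acta2) had a gene-end peak in Seh1cKO cells and none in control day 1 cells (6.06%, against 1.12% of all genes). The opposite held for 4 genes, Mrc1, Tmem119, Cldn5 and Pdgfrb (12.1%, against 8.17% of all genes). Between the controls, Mrc1, Abcc9, Cldn5 and Pdgfrb had one at day 1 and not in progenitors (12.1%, against 5.52% of all genes). Ptprc, Tek, Vwf, Esam, Cd68 and Acta2 had one in progenitors and not at day 1 (18.2%, against 4.72%). Of the 6 genes called in both day 1 libraries, 5 had a lower pileup FPM in Seh1cKO cells, with a median ratio to control day 1 of 0.726, against 1.00 over 12052 genes. None of the 6 was past a factor of 2: 1.78% of all genes were at or below 0.5 times and 1.57% at or above 2 times the control. For control day 1 over progenitors, the median over 6 genes was 1.45, against 1.39 over 12633 genes. The peaks compared were different sites for Tmem119 and Erg, and over the 5 genes with a shared site the median was 1.46. Again none was past a factor of 2 (0.301% of all genes at or below 0.5 times, 9.21% at or above 2 times). Both comparisons use the control day 1 library.

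Counted over the gene bodies and 10000 bp on either side, each of the 33 loci held a peak in at least 1 library, whereas 10.9% of all loci held none. That count depended on weak and flanking peaks. Without flanks 7 of the 33 held none (21.2%, against 22.0% of all genes), at a −log10 q of at least 5 it was 4 (12.1%, against 21.9%), and with each library limited to its 46113 strongest peaks it was 5 (15.2%, against 21.6%). In the Seh1cKO library 9 loci held no peak (27.3%, against 25.8% of all loci): Itgam, Cx3cr1, Csf1r, Tmem119, Trem2, Fcrls, Tie1, Cldn5 and Sox17. In the control day 1 library no locus was without a peak, against 15.2% of all loci, and in progenitors Itgam, Cldn5 and Sox17 were (9.09%, against 16.1%). The median locus was 45568 bp long among the 33 genes and 37169 bp among all genes, so these shares are not matched for length.

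With each peak counted a single time, the 33 loci held 47 peaks in Seh1cKO cells, 122 in control day 1 cells and 119 in progenitors. Per 100 kb this was 2.05, 5.33 and 5.20 peaks, against 2.25, 5.27 and 4.81 over all loci. Taken over the 33 loci, the peaks were lower than those of all loci: their median was 1.01 FPM in Seh1cKO cells, 0.685 in control day 1 cells and 0.556 in progenitors, against 1.38, 0.767 and 0.641. The strong share was 23.4% in Seh1cKO cells (exact 95% interval 12.3 to 38.0), 23.8% in control day 1 cells (16.5 to 32.3) and 22.7% in progenitors (15.5 to 31.3), against 38.7%, 32.1% and 29.3% over all loci. The classes were not alike in this. Microglial loci had 7 strong peaks of 15 in Seh1cKO cells, 14 of 42 in control day 1 cells and 11 of 39 in progenitors (46.7%, 33.3% and 28.2%), near or above the shares over all loci. Their median was 1.48 FPM in Seh1cKO cells, above the 1.38 over all loci, and 0.712 and 0.556 in control day 1 cells and progenitors. Endothelial loci had 4 of 27, 13 of 60 and 15 of 63 strong peaks (14.8%, 21.7% and 23.8%), and mural loci none of 5, 2 of 20 and 1 of 17, all below the shares over all loci.

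Several of the strong microglial peaks lay at the ends of neighbouring genes. In Seh1cKO cells only those of P2ry12 and Ptprc did not, and the others, in Aif1, Cd68 and Tyrobp, all did. The high strong share of microglial loci there thus rests largely on peaks at other genes' ends. Peaks within 1000 bp of another protein-coding gene's end made up 11 of 47 in Seh1cKO cells, 14 of 122 in control day 1 cells and 17 of 119 in progenitors. Aif1 held no other peak in any library: its 1 peak, at Prrc2a, had 8.76 FPM in Seh1cKO cells, 6.74 in control day 1 cells and 4.23 in progenitors. Cd68 held no other peak in the day 1 libraries, and its tallest, at Eif4a1 and Senp3, had 5.90, 6.08 and 5.21 FPM. Tyrobp held no other peak in the day 1 libraries, with 1.48, 1.81 and 0.769 FPM at Nfkbid. In Seh1cKO cells the peaks of Sox18 were also all of this kind, at Tcea2, and in progenitors those of Esam. The neighbours C1qa, C1qb and C1qc shared a site with 0.602 FPM in control day 1 cells and 0.855 in progenitors. The Seh1cKO peak of 0.645 FPM that all 3 loci held lay at another site, the end of C1qa, and C1qa alone held a further progenitor peak of 0.470 FPM.

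At 5 classic marker loci the peaks were faint, while other classic marker loci, such as P2ry12, Ptprc, Pecam1 and Vwf, held strong peaks. Itgam held 1 peak in all, of 8 fragments in control day 1 cells. Tie1 held none in Seh1cKO cells, 1 of 8 fragments in control day 1 cells and 1 of 10 in progenitors. Csf1r held none in Seh1cKO cells, 4 of up to 0.876 FPM in control day 1 cells and 2 of up to 0.513 in progenitors. Fcrls, an Fc receptor-like gene of mouse microglia, held none in Seh1cKO cells, 1 of 0.712 FPM in control day 1 cells and 2 of up to 0.513 in progenitors. Sox17 held peaks only in control day 1 cells, of 12 and 9 fragments. None of the peaks of these 5 loci was strong. Among the others, Rgs5, a G protein regulator of pericytes, held 1, 3 and 2 peaks in Seh1cKO, control day 1 and progenitor cells, none above 0.821 FPM. Pdgfrb held 1, 6 and 5 peaks, none above 0.931 FPM, and Abcc9 held 1, 6 and 5, none above 0.986. In Cdh5 the tallest peak was 1.29 FPM in Seh1cKO cells, 0.548 in control day 1 cells and 1.03 in progenitors, the last of them strong. That progenitor peak was another site, 9684 bp outside the gene. At the Seh1cKO site, inside the gene, progenitors had 0.513 FPM.

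Joined across libraries, the locus peaks formed 199 sites. A peak in all 3 libraries was found at 31 sites (15.6%, exact 95% interval 10.8 to 21.4), against 21.7% of the sites of all loci. In a lone library stood 144 sites (72.4%, 65.6 to 78.5), against 67.7%: 7 in Seh1cKO cells, 68 in control day 1 cells and 69 in progenitors. Strength went with presence: 26 of the 31 sites found throughout were strong, and 4 of the 144 found in a lone library were. As shares these were 83.9% and 2.78%, close to the 87.4% and 2.96% over all loci.

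**Figure D3:**
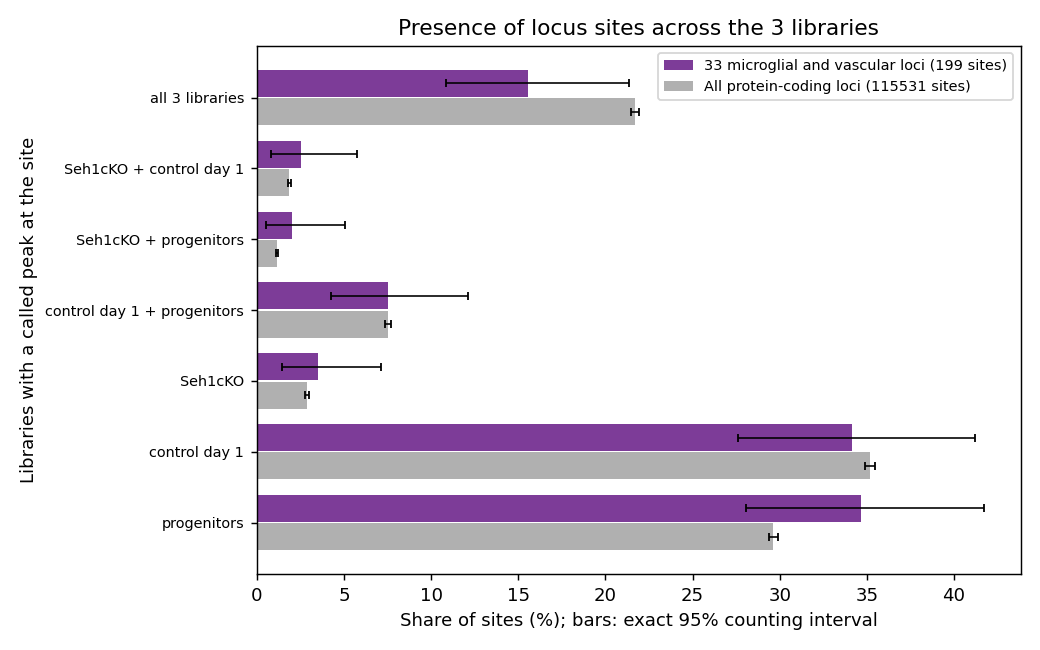
Share of sites (horizontal axis, percent, with exact 95% counting intervals) by the libraries in which a peak was called (vertical axis), for the 199 sites of the 33 loci and for 115531 sites of all protein-coding loci. Sites of control day 1 only (34.2%) and of progenitors only (34.7%) are the most frequent kinds in the 33 loci, and 15.6% were found in all 3 libraries.

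Of the 122 control day 1 peaks in the 33 loci, 38 (31.1%, 23.1 to 40.2) were overlapped by a Seh1cKO peak, against 35.7% over all loci. Of the 29 strong ones, 24 were (82.8%), against 82.1%, and of the 93 weaker ones 14 (15.1%), against 13.8%. From the other side, 35 of 47 Seh1cKO peaks (74.5%, 59.7 to 86.1) were overlapped in control day 1 cells, against 84.9%, and all 11 strong ones were. Between the controls, 49 of the 122 day 1 peaks (40.2%, 31.4 to 49.4) were overlapped in progenitors, against 45.0%, and 46 of 119 progenitor peaks (38.7%, 29.9 to 48.0) at day 1, against 49.8%. Of the 93 weaker day 1 peaks, 25 (26.9%) were overlapped in progenitors, against 23.6% over all loci. The Seh1cKO library had 59.4% and the progenitor library 128% as many fragments as the control day 1 library. Whether depth accounts for the peaks without an overlap was not tested. Among mural loci, 4 of 20 control day 1 peaks were found in Seh1cKO cells and 4 of 20 in progenitors.

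Of the 26 strong sites found throughout, 19 lay away from the ends of other protein-coding genes, in 11 loci. The Kdr site among them lay at an end of the noncoding RNA gene Gm32727. The control day 1 library was highest at 13 of the 19, the progenitor library at 4 and the Seh1cKO library at 2. Over all 26, control day 1 was highest at 57.7%, against 57.3% of the 21909 such sites of all loci, so this order was about as frequent elsewhere. Progenitors were highest at 19.2%, against 11.3%, and Seh1cKO cells at 23.1%, against 31.4%. The next sites were picked for description with their values in view.

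The tallest was in Vwf, the clotting protein gene of endothelium, 36914 bp inside the gene at chr6:125589862-125590941. It had 50 fragments in Seh1cKO cells, 146 in control day 1 cells and 108 in progenitors, or 4.61, 8.0 and 4.61 FPM. A site inside Fli1, the ETS factor gene, at chr9:32434419-32435238 had 30, 105 and 57 fragments, or 2.77, 5.75 and 2.44 FPM. A site inside Acta2 at chr19:34243956-34244493 had 9, 46 and 23 fragments, or 0.830, 2.52 and 0.983 FPM. At these sites, as at P2ry12, control day 1 cells stood above both other libraries.

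The Seh1cKO to control day 1 ratio was 0.577 (0.410 to 0.800) in Vwf, 0.481 (0.309 to 0.728) in Fli1 and 0.329 (0.142 to 0.681) in Acta2. The control day 1 to progenitor ratio was 1.73 (1.34 to 2.24) in Vwf, 2.36 (1.69 to 3.32) in Fli1 and 2.56 (1.52 to 4.43) in Acta2. Over all loci the control day 1 to progenitor ratio had a median of 1.35. Divided by that median, it was 1.28 in Vwf, 1.75 in Fli1, 1.89 in Acta2 and 1.43 at P2ry12. This scaling was added after seeing the data, and the scaled Vwf value lay below the interval given above. The Seh1cKO to control day 1 and control day 1 to progenitor ratios share the control day 1 library, so a high value there moves both. Without it, Seh1cKO over progenitors, which differ in genotype and in T3, gave 0.999 (0.700 to 1.41) in Vwf, 1.14 (0.705 to 1.80) in Fli1, 0.844 (0.344 to 1.89) in Acta2 and 1.00 (0.559 to 1.74) at P2ry12.

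The opposite order stood inside Flt1 and Pecam1, the platelet and endothelial adhesion molecule. The Flt1 site at chr5:147611433-147611658 had 22 fragments in Seh1cKO cells, 18 in control day 1 cells and 71 in progenitors, or 2.03, 0.986 and 3.03 FPM. Its ratio was 2.06 (1.05 to 4.07) for Seh1cKO over control day 1 and 0.325 (0.182 to 0.551) for control day 1 over progenitors. The Pecam1 site at chr11:106674652-106675075 had 25, 26 and 59 fragments, or 2.31, 1.42 and 2.52 FPM. Its ratio was 1.62 (0.897 to 2.92) for Seh1cKO over control day 1, an interval that holds 1, and 0.565 (0.342 to 0.910) for control day 1 over progenitors. Control day 1 cells were lowest at both sites. The site inside Ptprc at chr1:138148571-138149412 had 26, 66 and 62 fragments, or 2.40, 3.61 and 2.65 FPM, and the intervals of its Seh1cKO to control ratio, 0.663 (0.404 to 1.06), and of its control day 1 to progenitor ratio, 1.36 (0.950 to 1.96), held 1.

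**Figure D4:**
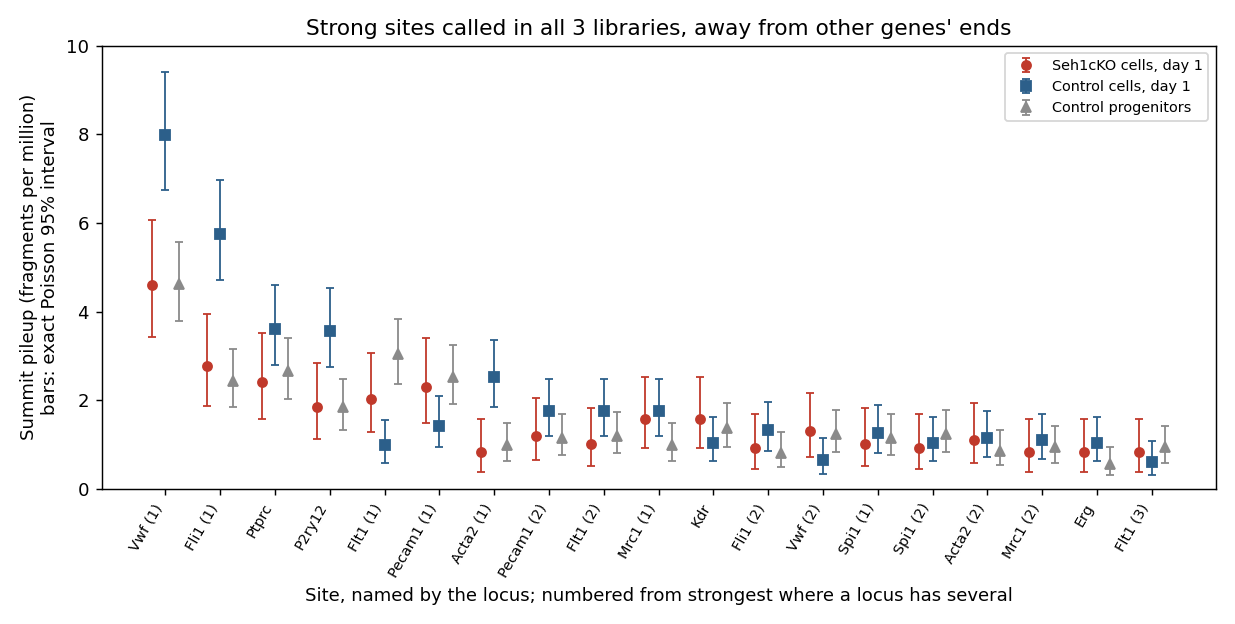
Summit pileup (vertical axis, FPM, with exact Poisson 95% intervals) in each library at the 19 strong sites called in all 3 libraries and away from the ends of other protein-coding genes (horizontal axis). Control day 1 is above the Seh1cKO and progenitor points at the first sites of Vwf, Fli1 and Acta2 and at P2ry12, and below them at the first sites of Flt1 and Pecam1.

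Over every site of the 33 loci called in both day 1 libraries, 36 in all, the Seh1cKO to control ratio had a median of 0.930, against 0.918 over all loci. Its counting interval lay below 1 at 4 sites (11.1%, against 12.8% of all sites) and above 1 at 1 site (2.78%, against 3.11%). For control day 1 over progenitors, the median over 46 sites was 1.24, against 1.35 over all loci. There the interval lay below 1 at 2 sites (4.35%, against 1.14% of all sites) and above 1 at 10 sites (21.7%, against 29.7%). For Seh1cKO over progenitors, the median over 35 sites was 1.13, against 1.23. No interval there lay below 1, against 2.44% of all sites, and 4 lay above it (11.4%, against 17.5%). Ratios above 1 in the control day 1 and Seh1cKO libraries over progenitors were thus the more common direction over all loci, and the Flt1 and Pecam1 sites above were the 2 whose control day 1 to progenitor interval lay wholly below 1.

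Further strong sites lacked a peak in a library. Sox18, a SoxF factor gene, had one 7923 bp away in its flank, at chr2:181661500-181661914, with 53 fragments, or 2.90 FPM, in control day 1 cells alone. That site had no peak in Seh1cKO cells or progenitors, and it lay within 1000 bp of an end of Gm25879, a small nuclear RNA gene. Fli1 had one at chr9:32443843-32444157, with no peak in Seh1cKO cells, 1.53 FPM in control day 1 cells and 0.641 in progenitors. These were taller in control day 1 cells than in either other library. Kdr had one at chr5:75976381-75977105, with 1.57 FPM in Seh1cKO cells, 1.48 in control day 1 cells and no overlapping peak in progenitors. It too lay within 1000 bp of an end of Gm32727. Beyond the silent start of Cx3cr1, the site chr9:120073163-120073575 had no peak in Seh1cKO cells, 0.602 FPM in control day 1 cells and 0.983 in progenitors. Near Trem2 a site 9288 bp from the gene had 1.10 FPM in control day 1 cells alone, and in Mrc1 another had 1.10 in control day 1 cells alone. Vwf had one in progenitors alone, with 0.983 FPM. Tek had one with 1.11 FPM in Seh1cKO cells, no peak in control day 1 cells and 0.897 in progenitors, and Erg one with 0.830, no peak and 0.940 in that order. So each library lacked some strong site that the others held.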

How the data were processed

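ATAC-seq peak tables of 3 mouse libraries were analysed. Per the file headers, the authors called peaks per library with MACS 2.1.2_dev on paired-end fragments, duplicates kept, no control, q cutoff 0.05, maximum gap 50 bp, minimum length 100 bp and local background 10000 bp. Bowtie2, SAMtools and mm10 are named per the submitters' processing notes; no source used here states any shift for the transposase. Each deposited table gives a pileup signal at the summit, a fold (a ratio to background), and −log10 p-values and −log10 q-values under damaged column names. The first damaged column was checked: p recomputed from pileup and fold matched it within 0.01 for 99.9% or more of peaks in each library. The progenitor label was read as day 0 from the deposited header name. Pileups were divided by header fragments and scaled to 1000000 (FPM), so this signal still depends on background.

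Genes were RefSeq GRCm38.p6 (21887 protein-coding), with strand only for promoter entries. Shares have exact Clopper-Pearson, pileups exact Poisson and ratios exact conditional 95% intervals (scipy 1.17.1, Python 3.11.15), since a pileup of 7 gives little precision. The interval search was tested on simulated data. Named genes were the 33 listed; sites described singly were chosen after their values were seen. Members and lists were chosen with earlier results of these data known. Alternatives were other windows, flanks, q thresholds, overlaps, list lengths and scalings. Nothing deposited was left out.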

Additional observations from a re-analysis of the deposited data

How the results depend on the processing

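Of 79 alternative values, 48 moved little and 31 more. The rule was loose: for shares and single ratios, little meant staying inside the counting interval of the reported value. So the control day 1 to progenitor ratio of the tallest Fli1 site, 2.36 and then 1.75 when scaled, counted as little. A progenitor gene-end count of 12 that became 16 with a window of 2000 bp did too. Medians divided by the median over all genes were set as moved without a rule. Of 33 ratios, 1 crossed 1: control day 1 over progenitors at the Spi1 end. It was 0.815 once each library's pileups were divided by their median over all genes. Its counting interval before that already held 1. The count of genes with a gene-end peak was 2 in Seh1cKO cells at a −log10 q of at least 5. In control day 1 cells it was 16 with a window of 2000 bp. In progenitors it was 5 with a window of 500 bp, and 6 each at that q and with all lists cut to the 46113 strongest peaks. At RefSeq starts alone it was 6 in control day 1 cells and 6 in progenitors, but only the 20 genes with a start entry could be counted, of which 7 and 8 had a peak at either end. Genes with an end peak in all 3 libraries numbered 2 with 500 bp, 8 with 2000 bp and 2 (Kdr and P2ry12) at that q. Loci with no peak in any library numbered 7 without flanks, 4 (Cldn5, Itgam, Sox17 and Tie1) at that q, 5 (with Fcrls) in lists of equal length and 1 (Aif1) without peaks at other genes' ends, an alternative added after seeing the data. Locus peaks at that q numbered 21 in Seh1cKO cells, 56 in control day 1 cells and 49 in progenitors. The share of control day 1 peaks found in Seh1cKO cells was 18.9% when the overlap had to cover 0.5 of each peak, 63.0% in lists of equal length and 82.8% for strong peaks (added after seeing the data); in progenitors it was 27.0%, 60.9% and 82.8%. Divided by the median over all genes, the median gene-end pileup was 0.323 in Seh1cKO cells, 0.402 in control day 1 cells and 0.375 in progenitors. With each library's pileups divided in this way, the median gene-end ratio was 0.640 for Seh1cKO over control day 1. P2ry12 was then the 1 gene past a factor of 2. For control day 1 over progenitors the median was 1.08. The dividing medians, 2.86 in Seh1cKO and 2.52 in control day 1 cells, were over each library's own genes with an end peak. Over the 12052 genes called in both day 1 libraries the median ratio was 1.00, so the 0.640 and the P2ry12 call depend on this choice. Undivided, over genes whose end peaks overlapped (added after seeing the data), the median gene-end ratios were 0.726 and 1.46. The cause of these shifts was not tested, except that stricter thresholds and shorter lists hold fewer peaks by construction. No paired analysis was possible because each group had 1 library and no test was made. Depth limits the Seh1cKO library most: a site below 0.553 FPM could not be listed there.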
